A study of Mus musculus with 12 samples.

Results

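Messenger RNA levels of 8 tumour suppressor genes of T-cell acute lymphoblastic leukaemia (T-ALL) were followed in 3 mouse T-ALL lines, with and without the inhibitor PKF118-310. The genes were Fbxw7, Nf1, Bcl6, Phf6, Dnmt3a, Ptpn2, Cnot3 and Usp7. They were chosen by symbol among the 52535 gene rows of the count tables, as genes that are recurrently inactivated or repressed in T-cell leukaemia, and 3 of them (Fbxw7, Bcl6 and Nf1) are named in the study. All 8 were found, and all 8 passed the filter on low counts in both fits described below.

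The study asked which genes respond when β-catenin is kept from acting with Tcf factors, the transcription factors at the end of the Wnt pathway, and PKF118-310 is an inhibitor of that interaction. Lines 240, 242 and 352 are cultured T-ALL cells from mice with 2 transgenes, Dlx5 (a homeobox gene) and an activated form of the kinase Akt2, each under the Lck promoter, which is active in T cells. Control and treated cells of each line all carried both transgenes, the controls were placebo-treated according to the study, and the age of the mice was not given in the sources used here. Each line gave 1 control and 1 treated library, sequenced in 2 lanes that were summed, so each group held 3 libraries. The labels describe the lanes in this way, whereas a legend of the study speaks of separate cultures per line and state. Following the labels, lanes were taken as 1 library, and chi-square per degree of freedom between the lanes was 0.98 to 1.02 in lines 240 and 242 and 2.01 and 2.05 in the libraries of line 352, where lanes differed by more than sampling noise.

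Tumour suppressors restrain the growth or survival of a cell, and T-ALL cells often carry loss-of-function mutations or deletions of them. Their products act at different levels. Fbxw7 and Usp7 set the stability of other proteins, Nf1 and Ptpn2 limit growth factor and cytokine signals, Bcl6, Phf6 and Dnmt3a act on chromatin and transcription, and Cnot3 acts on messenger RNA. An RNA level reports how much transcript is present and does not show whether a gene carries a mutation.

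Total counts were 604984 in the treated library of line 242 and 3160824 to 13766638 in the other 5. That library stood apart in other ways as well. Mitochondrially encoded genes took 11.8% of its counts, against 1.84 to 3.10% elsewhere. Among protein-coding genes at 0 counts in the controls of both other lines, 35.1% had counts there, against 4.27% in its own control, and in line 240 the share went from 5.66 to 18.9% with treatment and in line 352 from 11.0 to 26.0%. Over these silent genes the treated library of line 242 held 0.473 counts per kilobase of exon, a rate set beside the counts of single genes further on. T-cell markers were present throughout. Of 12 such markers all had counts in 5 libraries and 11 in the treated library of line 242, where Ptcra was at 0, and their summed level was 4411 to 6038 CPM in controls and 2780 to 6414 CPM in treated cells (CPM, counts-per-million of a library). B-cell markers summed to 0 to 0.496 CPM in controls and 1.38 to 74.4 CPM in treated cells, where the highest value was set by 43 counts of Pax5 in line 242. Over all libraries, markers of macrophages and granulocytes summed to 1.24 to 19.8 CPM, of erythroid cells to 0 to 0.316 CPM, of fibroblasts and endothelium to 42.6 to 73.4 CPM (mostly Pecam1 outside the thin library) and of thymic epithelium to 0 to 24.8 CPM. Because of these differences each result is given with all 3 lines and again with lines 240 and 352 alone. The part of these differences in the results was not tested.

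The 8 genes were expressed in every library, at levels that lay far apart. Compared per length, as CPM per kilobase of exon (exon lengths from GENCODE vM21), Usp7 was at 71.1 ± 20.9 in the controls (SD, n = 3), higher than 94.3% of the tested genes. Usp7 encodes a deubiquitinase that removes ubiquitin from proteins such as Mdm2. Ptpn2, a tyrosine phosphatase gene, followed at 21.3 ± 1.49 CPM per kilobase, and the ranges of these top 2 genes overlapped no other of the 8. The median of all tested genes was 9.61 CPM per kilobase.

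Phf6 was at 14.8 ± 2.31, Cnot3 at 13.7 ± 3.75, Dnmt3a at 10.5 ± 2.19 and Fbxw7 at 9.82 ± 2.90 CPM per kilobase in the controls (SD, n = 3 each). Neighbours in the order of these 4 overlapped in their ranges over the 3 controls, so that order was not separated from the spread between lines. Nf1 was at 5.59 ± 0.567 and Bcl6 at 3.52 ± 1.46 CPM per kilobase, the lowest of the 8, and the ranges of these 2 genes overlapped neither each other nor Fbxw7. Bcl6 was higher than 21.3% of the tested genes.

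**Figure D1:**
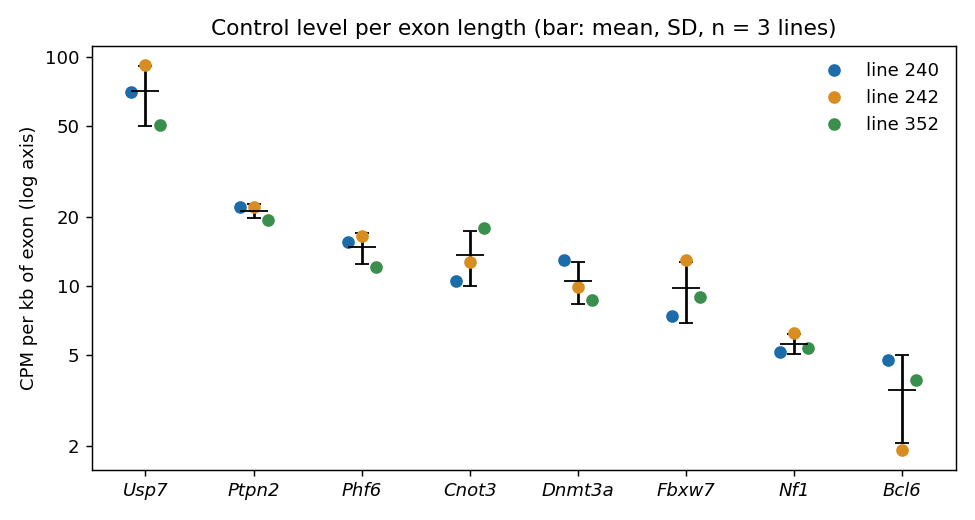
Control level of each of the 8 genes in CPM per kilobase of exon (vertical log axis), with 1 point per line and a bar for the mean and SD over 3 lines. Usp7 at 71.1 lies above all others, Nf1 at 5.59 and Bcl6 at 3.52 lie lowest, and the 4 genes in the middle overlap.

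None of the 8 genes passed the test for a response to PKF118-310. With all 3 lines, 0 of 8 passed, and the background was 0% of 10331 genes (edgeR's quasi-likelihood test with the line as a block, Benjamini-Hochberg adjusted p below 0.05). At an unadjusted p below 0.05 there were 570 genes, 5.52% of all, while DESeq2 called 45 genes and limma voom with sample weights 801, and neither called any of the 8. In lines 240 and 352 alone, 0 of 8 passed against a background of 10.9% of 11760 genes, 5.01% higher and 5.92% lower. This smaller fit holds 4 libraries of 2 lines and leaves few degrees of freedom per gene. Its SE, intervals and p-values therefore rest mostly on spread estimated over all genes. The median log2 fold change of the 8 genes was 0.03 in 3 lines, where that of all tested genes was 0.00, and 0.06 in lines 240 and 352, where it was -0.01. Fbxw7 (higher in treated cells) and Phf6 (lower) were the members that differed the same way in every line by more than counting error, which for Phf6 in line 352 did not hold once the spread between its lanes was added.

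**Figure D2:**
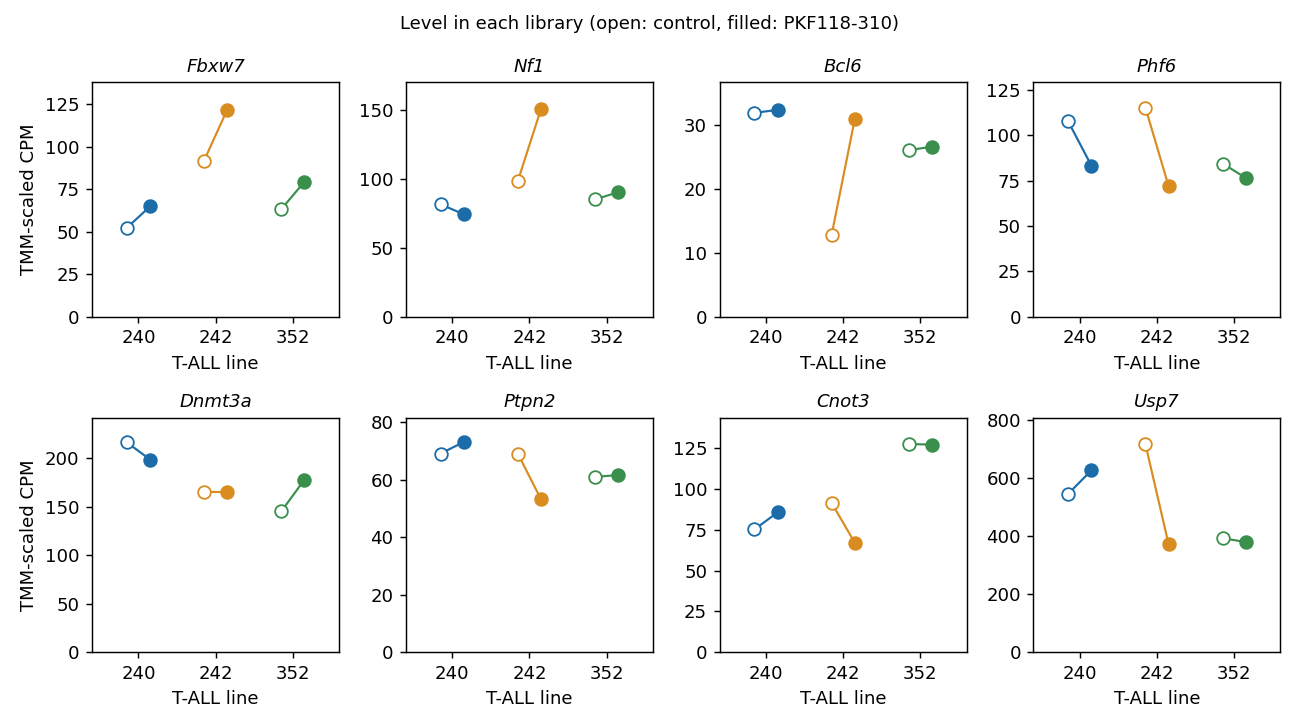
Level of each gene in CPM scaled by TMM (vertical axes, from 0) in the control (open) and treated (filled) library of lines 240, 242 and 352 (horizontal axes). Fbxw7 is higher and Phf6 lower after treatment in each line, and the steepest slopes of Nf1, Bcl6 and Usp7 are those of line 242.

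Fbxw7 (chromosome 3, 84815268 to 84979198 in mm10, plus strand) encodes the substrate-binding subunit of a ubiquitin ligase that marks Notch1, Myc and cyclin E for degradation. Its level was 52.4 CPM in the control and 65.0 CPM in the treated library of line 240, 91.9 and 122 CPM in line 242, and 63.3 and 79.5 CPM in line 352. The treated library was the higher one in each line, but the groups overlapped because line 242 was high in both states. The changes on the log2 scale were 0.31 (95% counting interval 0.03 to 0.59), 0.41 (0.01 to 0.79) and 0.33 (0.20 to 0.46) in lines 240, 242 and 352. These intervals cover counting error only. In the 3-line fit the log2 fold change was 0.38 ± 0.14 (SE, n = 3 lines), a fold of 1.30 with a 95% interval of 1.01 to 1.67. Its edgeR adjusted p was 0.842 (0.0431 unadjusted). In lines 240 and 352 the value was 0.32 ± 0.12 (SE, n = 2 lines), with an edgeR adjusted p of 0.109 (0.0190 unadjusted). There 17.3% of all tested genes had a smaller p, against 4.78% in the 3-line fit.

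Usp7 (chromosome 16, 8689595 to 8792308, minus strand) was at 546 and 627 CPM in the control and treated library of line 240, at 717 and 373 CPM in line 242, and at 393 and 380 CPM in line 352. The control of line 242 was the highest and its treated library the lowest of all 6. Line 240 had a log2 change of 0.20 (95% counting interval 0.11 to 0.29), line 242 one of -0.94 (-1.15 to -0.74) and line 352 one of -0.05 (-0.11 to 0.00). Lines 240 and 242 thus differed in direction, each by more than counting error. The library behind the value in line 242 is the thin one described above, with 217 counts of Usp7, of which the rate over silent genes would account for 1.69%. The fits gave a log2 fold change of -0.22 ± 0.26 for 3 lines (edgeR adjusted p = 0.897) and of 0.07 ± 0.12 for lines 240 and 352 (0.753), where its 95% interval ran from -0.18 to 0.33.

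Nf1 (chromosome 11, 79339693 to 79581612, plus strand) encodes neurofibromin, which switches off Ras by speeding its hydrolysis of GTP. Its level was 81.8 CPM in the control and 74.5 CPM in the treated library of line 240, 98.8 and 151 CPM in line 242, and 85.3 and 90.6 CPM in line 352. The treated library of line 242 lay above the other 5, which held a narrow range. Line 240 had a log2 change of -0.13, line 242 one of 0.61 and line 352 one of 0.09, and the counting interval left out 0 in line 242 only (0.26 to 0.96). The 3-line fit gave 0.21 ± 0.21 (edgeR adjusted p = 0.873). Without line 242 the value was -0.01 ± 0.12 with a 95% interval of -0.26 to 0.24, so the positive value of the 3-line fit rested on line 242.

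Ptpn2 (chromosome 18, 67665511 to 67724595, minus strand) encodes a phosphatase that removes phosphate from Jak and Stat proteins. It was at 69.2 and 73.2 CPM in line 240, at 69.1 and 53.2 CPM in line 242 and at 61.1 and 61.7 CPM in line 352, control before treated. All 6 libraries lay close together and each line's counting interval included 0. The log2 fold change was -0.04 ± 0.15 in 3 lines (edgeR adjusted p = 0.988) and 0.04 ± 0.12 in lines 240 and 352 (0.860), with a 95% interval of -0.21 to 0.30 in the second.

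**Figure D3:**
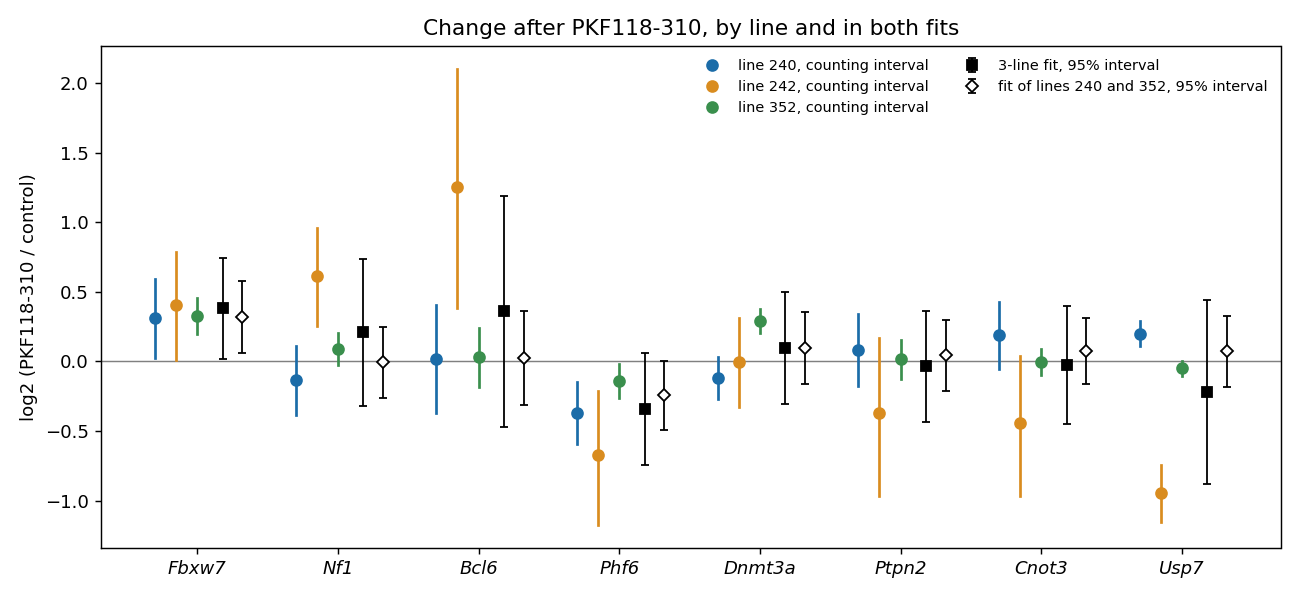
Log2 ratio of treated over control for each gene (vertical axis) in lines 240, 242 and 352 with 95% counting intervals, and the values of the fit of 3 lines (squares) and of lines 240 and 352 (diamonds) with their 95% intervals. All 3 lines of Fbxw7 lie above 0 and all 3 of Phf6 below it, while line 242 lies far from the other lines for Bcl6 (1.25) and Usp7 (-0.94).

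Bcl6 (chromosome 16, 23965052 to 23988852, minus strand) encodes a zinc-finger repressor that recruits Ncor and Bcor corepressors to DNA. Its 2 RefSeq start sites lie 7.57 kb apart, and the promoter windows of both are printed to show the only window, among the 11 that the RefSeq table holds for 6 of the 8 genes, with more than 1 kind of motif searched. The motifs were CTTTGA and CTTTGT, cores of Tcf/Lef sites, and TTCCNNGAA, a core shared by Bcl6 and Stat sites, on both strands. The windows are given 5′ to 3′ on the gene's strand in GRCm38.p6, with 250 bases before and 50 after the start site, and capitals mark motif matches.
Bcl6 inner start, chr16:23981234-23981533, minus strand: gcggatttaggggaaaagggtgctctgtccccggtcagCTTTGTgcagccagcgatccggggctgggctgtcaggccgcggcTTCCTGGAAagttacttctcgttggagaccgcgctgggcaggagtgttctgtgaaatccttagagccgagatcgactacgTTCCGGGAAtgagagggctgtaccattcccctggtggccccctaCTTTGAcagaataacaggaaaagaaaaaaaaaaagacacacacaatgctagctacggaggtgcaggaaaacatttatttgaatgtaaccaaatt
Bcl6 outer start, chr16:23988803-23989102, minus strand: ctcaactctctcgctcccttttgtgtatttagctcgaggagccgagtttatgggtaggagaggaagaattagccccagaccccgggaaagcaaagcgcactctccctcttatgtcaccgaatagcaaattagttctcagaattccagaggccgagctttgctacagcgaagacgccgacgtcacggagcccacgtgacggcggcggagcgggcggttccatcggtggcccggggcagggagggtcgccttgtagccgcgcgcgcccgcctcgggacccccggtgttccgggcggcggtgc
The inner window held CTTTGT at -212, TTCCNNGAA at -168 and -88 and CTTTGA at -44 from the start site. The outer window held none. Both TTCCNNGAA matches read on either strand, so each is 1 stretch. Of 32851 mouse promoter windows of this length, 16.0% held CTTTGA, 18.7% CTTTGT and 4.81% TTCCNNGAA. Among the other 9 windows of the members, matches were limited to 1 CTTTGT in a Dnmt3a window, at -60 on the minus strand. These matches are descriptions of letters, and whether they are binding sites was not tested. The study reports Tcf7 ChIP-seq peaks at Bcl6, Fbxw7 and Nf1, whose positions were not compared with these windows. Phf6 and Ptpn2 have no window printed or searched here.

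The level of Bcl6 was 31.9 CPM in the control and 32.3 CPM in the treated library of line 240, 12.8 and 30.9 CPM in line 242, and 26.0 and 26.6 CPM in line 352. The control of line 242 lay below the other 5 libraries, which were close to each other. In line 242 the counts behind these levels were 41 and 18, and of the 18 counts the rate over silent genes would account for 17.6% (3.17 counts). The log2 changes were 0.02 in line 240 (95% counting interval -0.37 to 0.41), 1.25 in line 242 (0.38 to 2.10) and 0.03 in line 352 (-0.18 to 0.24). With reads of silent genes subtracted, the value in line 242 was 0.99. The 3-line fit gave 0.36 ± 0.32 (edgeR adjusted p = 0.860) and lines 240 and 352 gave 0.03 ± 0.16 (0.942), with a 95% interval of -0.31 to 0.36. The higher value of the 3-line fit thus rested on line 242.

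Phf6 (chromosome X, 52912266 to 52956943, plus strand) encodes a PHD-finger protein of the nucleus and nucleolus that binds the NuRD complex. Its level was 108 CPM in the control and 83.4 CPM in the treated library of line 240, 115 and 72.1 CPM in line 242, and 84.5 and 76.6 CPM in line 352. All 3 treated libraries lay below all 3 controls, and Phf6 was the only one of the 8 genes whose groups did not overlap, where 6.1% of tested genes did not overlap. The log2 changes were -0.37 (95% counting interval -0.60 to -0.15), -0.68 (-1.17 to -0.21) and -0.14 (-0.26 to -0.02) in lines 240, 242 and 352. Widened by the spread between lanes, the interval in line 352 was -0.31 to 0.03 and included 0, while that of Fbxw7 there was 0.15 to 0.51. The 3-line fit gave -0.34 ± 0.16, a fold of 0.789 with a 95% interval of 0.598 to 1.04 (edgeR adjusted p = 0.842, 0.0802 unadjusted). Without line 242 the value was -0.24 ± 0.11 (adjusted p = 0.206). Of all tested genes, 9.09% had a smaller p in the first fit and 26.8% in the second.

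Dnmt3a (chromosome 12, 3806007 to 3914443, plus strand) encodes a DNA methyltransferase that sets new methylation marks. It was at 216 and 198 CPM in line 240, at 165 and 165 CPM in line 242 and at 145 and 178 CPM in line 352, control before treated. Line 352 was the only line whose counting interval left out 0, with a log2 change of 0.29 (0.21 to 0.38), against -0.12 in line 240 and 0.00 in line 242. The log2 fold change was 0.09 ± 0.16 in 3 lines (edgeR adjusted p = 0.940) and 0.10 ± 0.12 in lines 240 and 352 (0.661), with a 95% interval of -0.16 to 0.35 in the second.

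Cnot3 (chromosome 7, 3645268 to 3661109, plus strand) encodes a subunit of the Ccr4-Not complex, which shortens the poly(A) tail of messenger RNA. It was at 75.1 and 85.6 CPM in line 240, at 91.3 and 67.0 CPM in line 242 and at 127 and 127 CPM in line 352, control before treated. The directions differed between lines 240 and 242, and each line's counting interval included 0. The log2 fold change was -0.03 ± 0.16 in 3 lines (edgeR adjusted p = 0.992) and 0.07 ± 0.11 in lines 240 and 352 (0.725), with a 95% interval of -0.17 to 0.31 in the second. Of its exon bases, 6.07% are shared with Leng1 on the opposite strand, which had 575 counts over all libraries against 270 or more for Cnot3 in each library but the thin one.

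Across the 8 genes, 2 were higher in the treated library of all 3 lines (Fbxw7 and Bcl6) and 1 was lower in all 3 (Phf6). Over all tested genes 13.9% were higher and 18.7% lower in all 3 lines, against 25% and 12.5% of the 8. In line 242 the median log2 change of the 8 was -0.19, against 0.05 in line 240 and 0.02 in line 352, and over all tested genes it was -0.10, 0.00 and 0.00 in these lines. Control and treated cells are compared here as bulk RNA, in which fewer cells of a type and less RNA per cell cannot be told apart.

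More genes passed in the comparison of the lines with each other than in that of the treatment groups. In lines 240 and 352, with control and treated library of a line as its 2 samples, 3 of 8 genes (Cnot3, Usp7 and Dnmt3a) differed between the lines, against a background of 44.7% of 11760 genes. Cnot3 was higher in line 352, and Usp7 and Dnmt3a were higher in line 240. With all 3 lines 0 of 8 passed, against 5.32% of 10331 genes, and 2886 genes (27.9%) had an unadjusted p below 0.05. These tests compare the cultures of single tumours. The 2 libraries of a line are its control and its treated one, not repeats of a culture. The p-values therefore set the line difference against the spread left within lines once the treatment shift common to the lines is removed. The spread between repeat cultures of a line was not measured. With 4 libraries of 2 lines, the fit of lines 240 and 352 leaves few degrees of freedom per gene. Its SE, intervals and p-values for line differences thus also rest mostly on spread estimated over all genes.

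Cnot3 was at 127 CPM in both libraries of line 352, above the 67.0 to 91.3 CPM of the other 4 libraries. In the fit of lines 240 and 352 it was 0.68 ± 0.11 higher in line 352 on the log2 scale (SE, n = 2 lines). The edgeR adjusted p was 3.20e-04 and the fold 1.60, with a 95% interval of 1.36 to 1.90. The difference held in each alternative of that fit, with adjusted p up to 0.00480. In the test over 3 lines Cnot3 did not pass (adjusted p = 0.140), but it did with sample weights (0.00512) and without the treated library of line 242 (0.00172). Between lines 240 and 242 it differed by 0.05 ± 0.21.

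Usp7 was at 393 and 380 CPM in line 352, below both libraries of line 240. The log2 ratio of line 352 over line 240 was -0.58 ± 0.12 (edgeR adjusted p = 0.00149), a fold of 0.667 with a 95% interval of 0.559 to 0.797. In line 242 one library was the highest and the other the lowest of 6, and over 3 lines the adjusted p was 0.406. Without the treated library of line 242 it was 8.21e-04, with the lines spanning 0.95 on the log2 scale.

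The log2 ratio of Dnmt3a in line 352 over line 240 was -0.35 ± 0.12 (edgeR adjusted p = 0.0278), a fold of 0.782 with a 95% interval of 0.655 to 0.935. Both libraries of line 240 lay above the other 4. The difference did not pass with a stricter filter (adjusted p = 0.0680) or with DESeq2 (0.139).

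Fbxw7 was the member with the widest span between lines in the 3-line fit, 0.91 on the log2 scale, with both libraries of line 242 above the other 4. Line 242 over line 240 gave 0.91 ± 0.18 (edgeR adjusted p = 0.153, background 0.397% of genes), and line 352 over line 242 gave -0.62 ± 0.17 (0.0913, background 7.24%). Line 352 over line 240 gave 0.29 ± 0.17 in the same fit (0.388, background 4.38%). In these 3 comparisons between lines 0 of 8 genes passed. The joint test of the lines gave 0.0830 for Fbxw7. It passed without the treated library of line 242 (0.00440), with sample weights (0.0294) and with DESeq2 (0.0415). Line 352 over line 240 gave 0.30 ± 0.12 in the fit of these 2 lines (edgeR adjusted p = 0.0622). Of 6 alternatives of that fit, 2 passed, without the filter on low counts (0.0317) and with a stricter one (0.0305). The value did not pass with DESeq2 (0.412), with other scaling (0.0741) or with lane 1 (0.242) or lane 2 (0.0714) alone. The difference between lines 242 and 240 was larger than the treatment value of 0.38 in the same fit, a comparison of sizes that was not tested.

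Bcl6 spanned 0.70 between lines in the 3-line fit (edgeR adjusted p = 0.517). Without the treated library of line 242 the span was 1.28 and the adjusted p 0.00770, since the remaining library of that line, with 41 counts of Bcl6, was the lowest of all. Nf1 spanned 0.68 (adjusted p = 0.259), with both libraries of line 242 above and both of line 240 below the others. Both libraries of line 240 lay above the other 4 for Bcl6 and, by a small margin, for Ptpn2 (span 0.21, adjusted p = 0.693). Phf6 spanned 0.25 (0.589), and no line stood apart for it or for Usp7. In all, 6 of 8 genes had a line whose 2 libraries lay beyond the other 4, and 59% of tested genes did.

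**Figure D4:**
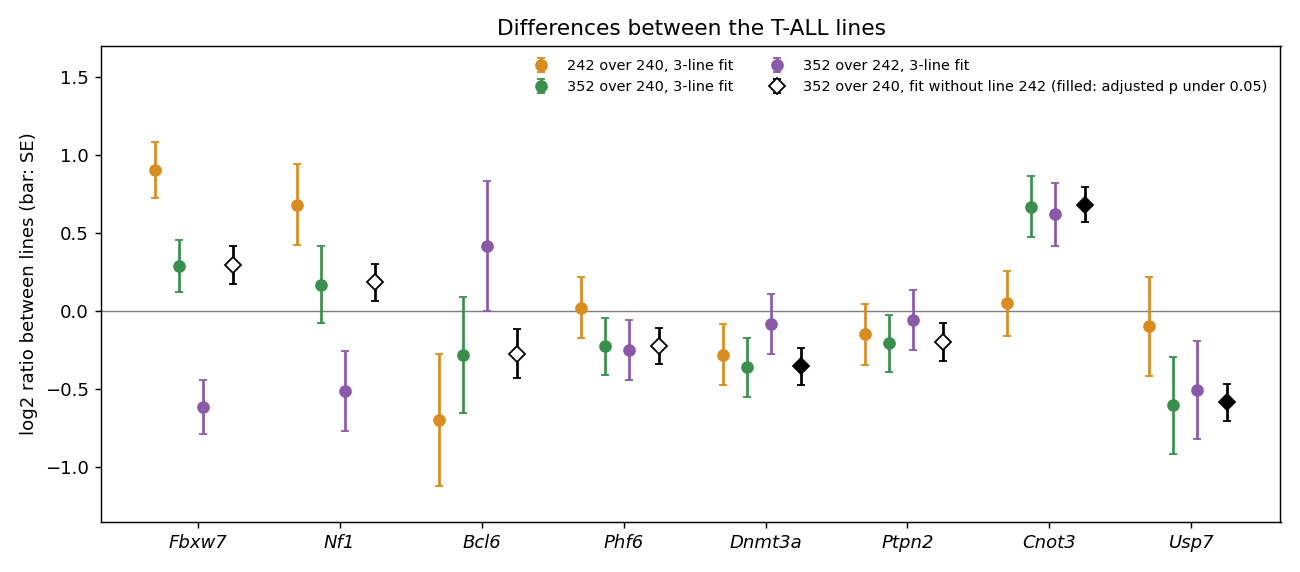
Log2 ratio between lines (vertical axis, bars are SE) for each gene from the 3-line fit (circles) and, for line 352 over line 240, from the fit of those lines alone (diamonds, filled where the adjusted p is below 0.05). The filled diamonds are Cnot3 at 0.68, Usp7 at -0.58 and Dnmt3a at -0.35, and Fbxw7 has the largest circle value at 0.91.

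The genes around these 8 were read from lists of partners, substrates and related suppressors. In the 3-line fit 0 genes of each of the 11 lists passed for the treatment. The counts below are those of lines 240 and 352, where the background was 10.9%, and overlapping lists share genes such as Trp53. Medians and fold changes are from that fit as well unless stated. Values of the 3-line fit could differ, with 0.20 ± 0.23 for Trp53. Of 32 other T-ALL tumour suppressors tested, 2 rose, 2 fell and 28 did not pass, with a median log2 fold change of -0.14. Cdkn1b, the gene of the cell-cycle inhibitor p27, went from 213 to 145 CPM in line 240 and from 218 to 122 CPM in line 352 and fell by 0.71 on the log2 scale (SE 0.11, edgeR adjusted p = 0.00223). Atm, a DNA damage kinase gene, rose by 0.53 ± 0.11 (adjusted p = 0.00823), and Trp53, the p53 gene, by 0.46 ± 0.11 (0.0164). Ikzf1, picked once its values were known, fell by 0.41 (SE 0.12, adjusted p = 0.0419). In line 242 Atm and Trp53 went the opposite way, at 83.2 and 51.5 CPM and 155 and 106 CPM in control and treated cells. Their log2 changes there were -0.69 (counting interval -1.29 to -0.14) and -0.54 (-0.94 to -0.16). Cdkn1b was at 93.8 and 105 CPM in line 242, and its interval included 0 (0.16, -0.26 to 0.56). Ikzf1 was lower after treatment in line 242 as well (-1.05, -1.32 to -0.80).

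Around Fbxw7, 1 of 4 ligase subunits and antagonists fell and 3 did not pass. It was Usp28, a deubiquitinase that counters Fbxw7, which fell by 0.71 (SE 0.14, edgeR adjusted p = 0.00693). Usp28 went the other way in line 242, from 46.0 to 68.7 CPM, with a log2 change of 0.58 (counting interval 0.04 to 1.09). Cul1 and Skp1a, scaffold and adaptor of the ligase, had 0.19 ± 0.10 and -0.17 ± 0.11 in lines 240 and 352 and did not pass. Of 12 substrates, 1 rose, 2 fell and 9 did not pass (median -0.05). Srebf2 and Srebf1, regulators of sterol and fatty acid synthesis that the study chose on these samples, fell by 0.91 (SE 0.12) and 0.70 (SE 0.11). Jun rose by 1.19 ± 0.34 (adjusted p = 0.0439), a call that rests mainly on line 352 (196 and 415 counts), since line 240 had 0 and 10 counts. The substrates best known in T-ALL did not pass, with -0.12 ± 0.14 for Notch1 and 0.05 ± 0.11 for Myc, both named after their values were seen.

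Around Nf1, 2 of 13 tested genes of Ras and its GTPase-activating proteins rose, 2 fell and 9 did not pass (median -0.24). Rasgrp1, a Ras activator of T cells, fell by 0.81 (SE 0.13, edgeR adjusted p = 0.00341), from 121 to 78.3 CPM in line 240 and from 35.2 to 17.7 CPM in line 352. Rasal1 fell by 0.76 (SE 0.14, adjusted p = 0.00567) and Rasal3 rose by 0.46 ± 0.12 (0.0238), and both are genes of the same protein family as Nf1. Hras, named after its values were seen, rose by 0.53 ± 0.15 (0.0449). These 2 rises were not seen in line 242, with -0.14 for Rasal3 (counting interval -0.59 to 0.29) and -0.43 for Hras (-1.29 to 0.32). Rasgrp1 was lower after treatment there as well (-1.36, -2.06 to -0.74), and the interval of Rasal1 (-0.74, -3.94 to 1.26) included 0. Around Ptpn2, 4 of 11 genes fell, 0 rose and 7 did not pass (median -0.09). These 4 were Stat5b (-0.66 ± 0.11, adjusted p = 0.00307), the kinase gene Jak3 (-0.71 ± 0.14, 0.00797), the phosphatase gene Ptpn6 (-0.50 ± 0.12, 0.0180) and, named after its values were seen, Stat5a (-0.45 ± 0.11, 0.0191). In line 242 the log2 changes were -0.34 for Stat5b (95% counting interval -0.68 to -0.02) and -1.09 for Stat5a (-1.72 to -0.52). The intervals of Ptpn6 (-0.57, -1.28 to 0.07) and Jak3 (-0.09, -1.49 to 1.08) included 0 there.

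Around Bcl6, 0 of 5 corepressors passed (median -0.03), with the largest value for Ctbp1 at -0.23 ± 0.11. Of 9 genes known as targets of Bcl6 repression, 3 rose, 1 fell and 5 did not pass, with a median of 0.46. Cdkn1a, the gene of the cell-cycle inhibitor p21 and also a p53 target, went from 53.9 to 156 CPM in line 240, from 42.8 to 840 CPM in line 242 and from 281 to 523 CPM in line 352. It rose by 1.16 ± 0.14 in lines 240 and 352 (edgeR adjusted p = 6.30e-04) and had 2.17 ± 0.75 in 3 lines (0.842). Ccnd2 rose by 2.22 ± 0.32 (0.00148), a call carried by line 352 (74 and 373 counts) with 1 and 2 counts in line 240. Trp53, on this list as well, is given above, and Atr, also picked once its values were known, fell by 0.38 (SE 0.11, adjusted p = 0.0408). Line 242 had a log2 change of 0.42 for Atr, with a counting interval that included 0 (-0.03 to 0.86).

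Around the other members fewer genes passed. Of 14 Ccr4-Not subunits and adaptors, 1 fell, the deadenylase gene Cnot6l (-0.61 ± 0.10, edgeR adjusted p = 0.00352), and 13 did not pass (median -0.03). Of 6 DNA methylation genes tested 0 passed (median -0.15), with Tet2 at -0.78 ± 0.23 (0.0502). That value rests mainly on line 352 (807 and 461 counts of Tet2), since line 240 had 4 and 7 counts. Tet2 went the other way in line 242 (47 and 46 counts), with a log2 change of 2.40 (counting interval 1.81 to 3.04). Of 8 Usp7 substrates and partners 1 rose, Trp53, and 7 did not pass (median 0.20), among them Mdm2 at 0.29 ± 0.11 (0.108). In line 242 Mdm2 went from 162 to 515 CPM, with a log2 change of 1.67 (counting interval 1.46 to 1.88). Of these 8 genes, 6 were lower after treatment in that line, where 55.0% of all tested genes were lower. Of 11 Phf6 partners 0 passed (median 0.02), with Ubtf, a factor of ribosomal RNA transcription, at 0.41 ± 0.12 (0.0528). Ubtf went the other way in line 242, from 415 to 297 CPM, with a log2 change of -0.48 (counting interval -0.72 to -0.25).

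**Figure D5:**
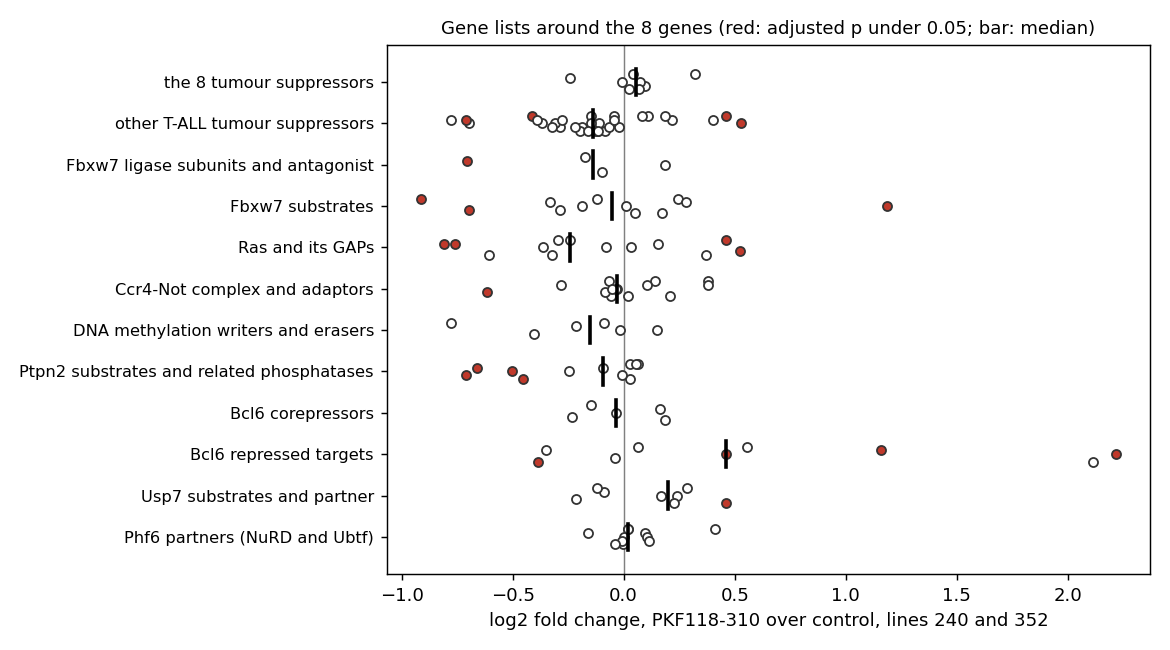
Log2 fold change after PKF118-310 in lines 240 and 352 (horizontal axis) for each tested gene of the 8 tumour suppressors and of the 11 lists around them (rows), with filled points at an adjusted p below 0.05 and a bar at the median. The 8 tumour suppressors lie between -0.24 and 0.32 with no filled point, and the widest spread is that of the Bcl6 targets, with a median of 0.46.

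In the differences between the 3 lines, where the background was 5.32%, 4 of 13 tested genes of Ras and its GTPase-activating proteins passed, 2 of 12 Fbxw7 substrates, and 1 each of 31 other suppressors, 6 DNA methylation genes and 11 Phf6 partners. The genes named here were chosen after their values were seen. Spred1, which works with Nf1 on Ras, had 270 and 162 counts in line 240, 7 and 2 in line 242 and 3 and 3 in line 352 (edgeR adjusted p = 0.0107). Tet1, an eraser of DNA methylation, had 284 and 126, 77 and 35, and 12 and 27 counts in these lines (0.0377). Etv6, another T-ALL suppressor, was at 211 and 177 CPM in line 352 against 43.7 to 54.4 CPM in the other libraries (0.0190). Chd3, a NuRD subunit, was at 669 and 849 CPM in line 352 against 116 to 192 CPM elsewhere (0.0258).

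The genes most like each member were sought among 7390 genes with a mean of at least 20 CPM, by Pearson's r of log2 CPM over the 6 libraries. These 6 points share lines and depth, so r is a description. For Fbxw7 the closest were Slc35d1 (0.993), Ggps1 (0.993) and Ube2w (0.990), and for Usp7 Usp34 (0.997), Ppp1cc (0.995) and Hmgb3 (0.991). For Bcl6 they included Ntrk3 (0.980) and Rinl (0.976), and for Phf6 Bag4 (0.983), Ctdsp1 (0.983) and Slain2 (0.981). The values of r given for Fbxw7 and Usp7 were higher than those for Bcl6 and Phf6, a difference that was not tested.

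For Nf1 the closest were Ric1 (0.992), Lrp1 (0.982) and Fam118a (0.980), for Dnmt3a Sec61g (0.965), Tmx3 (0.956) and Scn4b (0.938), for Ptpn2 Tufm (0.989), Atp5f1 (0.989) and Bid (0.989), and for Cnot3 Mbd2 (0.995), Tars (0.995) and Arl6ip4 (0.993). Among the members themselves the highest r was that of Fbxw7 with Nf1 (0.89), both of which were highest in line 242. The next was that of Ptpn2 with Usp7 (0.85), and the lowest that of Nf1 with Ptpn2 (-0.83).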

How the data were processed

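The authors deposited raw read counts per gene for 6 libraries of stranded poly(A)-selected RNA, in 1 file per library and lane (12 files), with no normalization. The tools in the submitters' processing notes are edgeR, HTSeq and HISAT2, with the build mm10, whereas the study's methods name TopHat. Versions, annotation, strand setting and the handling of reads with several matches were not given in the sources used here. Per the labels, the 2 lanes are technical replicates of 1 library, so they were summed, although a legend of the study speaks of separate cultures. If lanes held separate cultures, each sum would pool cultures.

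Counts were tested in R 4.3.3 with edgeR 4.0.16 (filterByExpr, TMM, quasi-likelihood F test, line and treatment as terms, Benjamini-Hochberg over all genes, threshold 0.05), in 3 lines and in lines 240 and 352. Each line comes from a different tumour, so its control and its treated library were treated as a pair. Their deviations from the group means correlated across genes at 0.67, 0.30 and 0.79 in lines 240, 242 and 352. CPM values are TMM-scaled, except those of marker lists, which use library totals. Changes within a line use a prior count of 2, with an exact conditional binomial 95% interval for counting error. Exon lengths came from GENCODE vM21 and promoters from RefSeq (GRCm38.p6). Members, gene lists and motifs were chosen with earlier results of these data known. All 8 members were named, from each list up to 3 genes with the smallest p in lines 240 and 352, and the 3 genes most like each member. Some genes that this rule takes are not reported here. Alternatives were other scaling and filters, DESeq2 1.42.0, limma 3.58.1 voom with sample weights, single lanes, no replicate block, each line left out, another prior count and library totals. Leaving out the treated library of line 242, subtracting reads of silent genes and widening counting intervals by the spread between lanes (root of chi-square per degree of freedom) were chosen after seeing the data. Scripts were tested on simulated data.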

Additional observations from a re-analysis of the deposited data

Results flagged for a closer look

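Usp7 went opposite ways in lines 240 and 242. Its log2 change after PKF118-310 was 0.199 in line 240 and -0.944 in line 242, each beyond counting error, with 2209 and 1977 counts in control and treated cells of line 240 and 2294 and 217 in those of line 242. The difference between the lines was not tested, because each line has 1 library per group. Of all libraries, the treated one of line 242 was the thinnest (604984 counts) and had the highest mitochondrial share (11.8%), and the part of these in the difference was not tested. With 3 samples in each group, no group was examined for single samples far from the others.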

How the results depend on the processing

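Of the treatment values of the 8 genes, none passed the threshold under any alternative run. That of Fbxw7 stayed between 0.30 and 0.40 in 3 lines (adjusted p of 0.0877 or more by edgeR, DESeq2 or voom) and that of Phf6 between -0.48 and -0.24 (0.185 or more). Values near 0 changed sign. In the 3-line fit, lane 1 alone gave 0.0715 for Ptpn2 and 0.0887 for Cnot3, lane 2 alone gave -0.0218 for Dnmt3a, and voom gave 0.0350 for Ptpn2 and 0.0666 for Cnot3. Leaving out each line in turn gave -0.00787 to 0.349 for Nf1, -0.150 to 0.0425 for Ptpn2, -0.194 to 0.0743 for Cnot3 and -0.478 to 0.0715 for Usp7, with the positive end, or for Nf1 the negative one, without line 242. For Dnmt3a the range was -0.0332 (without line 352) to 0.163. Without the treated library of line 242 alone, Nf1 had -0.0108, Ptpn2 0.0386, Cnot3 0.0704 and Usp7 0.0660. With lines 240 and 352, lane 1 alone gave 0.124 for Nf1, and lane 2 alone gave -0.0628 for Bcl6, -0.0522 for Ptpn2 and -0.0345 for Cnot3. The changes within lines stayed inside their counting intervals under the 3 alternatives that move the value, and widening the intervals by the spread between lanes made that of Phf6 in line 352 include 0.

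Counts over all genes moved more. For the treatment in 3 lines the count of 0 became 312 without the filter, 45 with DESeq2, 801 with voom, 3 to 1285 with a line left out (1285 without line 242) and 1119 without the treated library of line 242. In lines 240 and 352 the 1285 genes became 265 with DESeq2 and 753 in lane 2. Without the replicate block the counts were 0 in both fits, so the 1285 calls need the pairing by line. For differences between 3 lines the 550 genes became 3009 without the filter, 88 with the stricter filter (at least 50 counts in every library, which leaves 2744 genes), 1665 with DESeq2, 847 in lane 1, 4376 with voom, 209 to 5257 with a line left out and 6130 without the treated library of line 242. Between lines 240 and 352 the 5257 genes became 3266 with the stricter filter, which leaves 7418 genes, and 2824 with DESeq2. Other causes were not tested. At the depth of the treated library of line 242, 3 counts correspond to 4.96 CPM, against 0.218 to 0.949 CPM in the others, and counting error there leaves the change of Bcl6 between 0.38 and 2.10.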
